A study of Mus musculus with 12 samples.

Results

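The mouse mitochondrial genome is a small circular molecule whose genes are listed under the chromosome name MT in the counts of this study of sorted mouse hepatocytes. The rows under that name were taken as the members. There were 35 of them among 49315 gene IDs, 13 that code for proteins and 22 that code for tRNAs, all at the same position and strand in the GENCODE M21 annotation. The annotation has 37 mitochondrial genes, and its 2 rRNA genes, mt-Rnr1 and mt-Rnr2, were not analysed here.

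Mitochondrial DNA is copied into long RNAs that run along most of each strand, and the tRNAs lie between most of the mRNAs and rRNAs. Excision of the tRNAs releases the RNAs on either side, and most of the mRNAs then receive a short poly(A) tail, which in some of them completes the stop codon. The proteins are core subunits of the respiratory chain and of ATP synthase and join many subunits that are encoded in the nucleus. Hepatocytes, the main cells of the liver, hold many mitochondria and often become polyploid, with several copies of the nuclear genome, as the animal grows.

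The study compared hepatocytes of C57BL/6 mice by age and by ploidy. Both fractions came from 3 young mice (3 months old) and 3 aged mice (27 months old), giving 4 groups of 3 libraries, a diploid and a polyploid one at each age. Cells were freed by collagenase perfusion, then sorted by Hoechst DNA content and by a reporter, whose identity is not given. All groups share this strain, sort and preparation, and RNA was extracted with Trizol and made into libraries with the SMART-Seq v4 Ultra Low Input kit. Replicates of a group are different mice, and libraries of 1 age with the same number come from 1 mouse.

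The sequences of 5 tRNA genes are shown because the results turn on them: mt-Tn, mt-Tl1 and mt-Tp held the most tRNA counts, and mt-Tf and mt-Ts1 had the smallest p-values in a ploidy comparison. They are written 5′ to 3′ on the gene's own strand as DNA from the GENCODE M21 transcripts (GRCm38), with the anticodon in capitals.
mt-Tf (phenylalanine, MT, 1 to 68, plus strand): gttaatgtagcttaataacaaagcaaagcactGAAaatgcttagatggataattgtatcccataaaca
mt-Tl1 (leucine, MT, 2676 to 2750, plus strand): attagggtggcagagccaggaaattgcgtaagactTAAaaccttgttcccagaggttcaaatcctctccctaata
mt-Tn (asparagine, MT, 5089 to 5159, minus strand): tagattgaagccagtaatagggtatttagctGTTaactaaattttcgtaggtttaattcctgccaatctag
mt-Ts1 (serine, MT, 6870 to 6938, minus strand): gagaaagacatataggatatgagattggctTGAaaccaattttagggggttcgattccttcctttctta
mt-Tp (proline, MT, 15356 to 15422, minus strand): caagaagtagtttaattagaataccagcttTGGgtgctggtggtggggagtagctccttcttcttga
The genes are 67 to 75 bases long, so a sequenced fragment longer than that also covers neighbouring RNA.

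The last 30 bases of 4 mRNAs show how the coding regions end, with the bases of the stop in capitals. In mt-Co3, mt-Nd4 and mt-Cytb the annotated gene stops at a single T, which the poly(A) tail completes to a stop codon. The other 10 annotated protein-coding genes, such as mt-Co1, end in a complete one. Of these, mt-Nd1 and mt-Nd2 share their last 2 bases with the tRNA genes mt-Ti and mt-Tw, and mt-Atp6 shares 1 base with mt-Co3. Where the processed mRNAs of these genes end was not tested.
mt-Co1 (MT, 6843 to 6872, plus strand): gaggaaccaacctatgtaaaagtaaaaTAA
mt-Co3 (MT, 9361 to 9390, plus strand): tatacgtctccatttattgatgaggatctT
mt-Nd4 (MT, 11515 to 11544, plus strand): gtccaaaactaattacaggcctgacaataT
mt-Cytb (MT, 15259 to 15288, plus strand): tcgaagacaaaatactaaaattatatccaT
Neighbouring genes also overlap. mt-Atp8 and mt-Atp6 share 43 bases, in which the start codon of mt-Atp6 and the stop codon of mt-Atp8 are in capitals.
mt-Atp8 and mt-Atp6 (MT, 7927 to 7969, plus strand): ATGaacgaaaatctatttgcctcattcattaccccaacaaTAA
mt-Nd4l and mt-Nd4 share 7 bases, and mt-Nd5 and mt-Nd6, on opposite strands, share 14. mt-Nd6 is the single mRNA of the minus strand, and as written 5′ to 3′ it is 28.1% G, against 5.88% (mt-Atp8) to 16.1% (mt-Co1) in the other 12.

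Libraries held 17413153 to 26760570 gene counts, so that 1 CPM (a count per 1e6 gene counts) stood for 17.4 to 26.8 counts. Hepatocyte markers (10 genes, including Alb, Apoa1 and Cps1) summed to 78910 to 101249 CPM in 11 libraries and to 25749 CPM in aged diploid replicate 2. Macrophage markers (12 genes, including Adgre1, Clec4f and Cd5l) summed to 643 to 780 CPM in young diploid, 50.4 to 203 CPM in young polyploid, 1125 to 37207 CPM in aged diploid libraries, and 30.03 to 162 CPM in aged polyploid libraries. All 12 had counts in every library, the highest in aged diploid replicate 2. Endothelial markers (9 genes) reached 3484 CPM and stellate cell markers (8 genes) 4491 CPM in that library, against at most 98.1 and 43.6 CPM in the groups other than aged diploid. In such sorted bulk samples, fewer cells of a type and less RNA per cell cannot be told apart.

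Mitochondrial rows took 1.73% to 3.63% of the gene counts of a library. The share was 2.61%, 2.52% and 2.53% in young diploid replicates 1, 2 and 3, and 2.99%, 1.94% and 2.57% in young polyploid cells. In aged diploid cells it was 2.19%, 3.63% and 2.58%, and in aged polyploid cells 1.73%, 1.99% and 2.74%. The highest share thus lay in the aged diploid library with the most macrophage marker counts, and no pair of groups was separated. Protein-coding genes held nearly all of it, with 25426 ± 459 CPM in young diploid, 24766 ± 5168 CPM in young polyploid, 27847 ± 7396 CPM in diploid cells of aged mice and 21408 ± 5121 CPM in their polyploid cells (mean ± SD, n = 3 mice). The young diploid libraries lay closest together, and the ranges of all 4 groups overlapped.

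Per kilobase of gene, the counts on the mRNA rows fell into tiers. These levels are not corrected for reads shared with the nuclear copies described below. RNA of the opposite strand may also add to them, as the strand setting of the counting is not given. The mt-Co1 mRNA, for the catalytic subunit of cytochrome c oxidase (complex IV), had the highest mean level at 5596 CPM per kilobase over 12 libraries. The mt-Cytb mRNA, for cytochrome b of complex III, followed at 5473, and the mt-Nd1 mRNA, for a membrane subunit of NADH dehydrogenase (complex I), at 4708 CPM per kilobase. Their ranges over libraries overlapped, at 3770 to 8072, 3876 to 7330 and 2876 to 7319 CPM per kilobase. Within libraries, mt-Nd1 lay below mt-Co1 in all but young polyploid replicate 1, where their ratio was 1.44. The ratio of mt-Co1 to mt-Cytb ran from 0.765 to 1.30, so that either could be the higher. The other complex I mRNAs mt-Nd2, mt-Nd4, mt-Nd5 and mt-Nd6 made a second tier, with means of 1242, 1007, 883 and 746 CPM per kilobase and overlapping ranges. In every library mt-Nd1 lay above all of them. The mRNAs mt-Co3, mt-Atp6, mt-Atp8, mt-Co2 and mt-Nd3, for subunits of complexes IV, V, V, IV and I, had means of 433, 357, 162, 160 and 126 CPM per kilobase. The mt-Nd4l mRNA, for a small complex I subunit, had the lowest mean at 20.9, with a range of 10.1 to 37.5 that did not reach the lowest mt-Nd3 value of 59.5 CPM per kilobase.

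**Figure D1:**
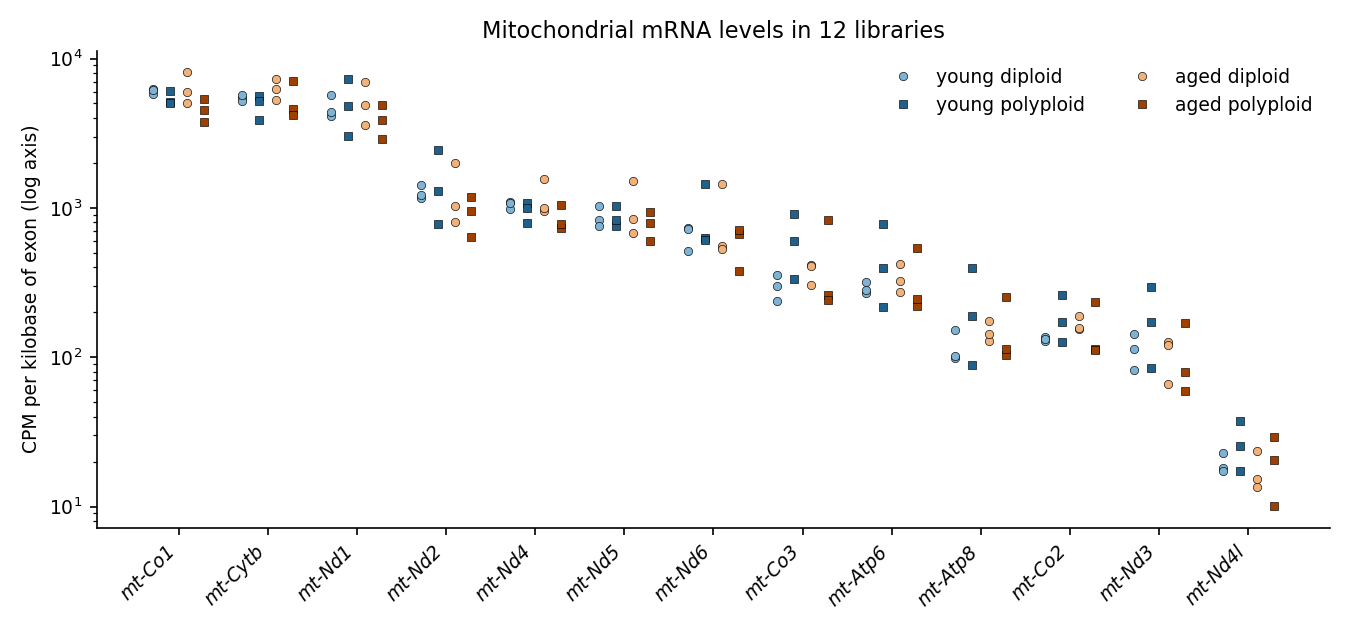
Level of the 13 mitochondrial mRNAs (x axis) in CPM per kilobase of exon on a log axis, 1 point per library and 1 colour and marker per group. mt-Co1, mt-Cytb and mt-Nd1 lie at the top in all groups, between 2876 and 8072, and mt-Nd4l lies lowest, between 10.1 and 37.5.

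The top 3 mRNAs were spread about as widely within groups as between them. mt-Co1 stood at 5758, 6287 and 6164 CPM per kilobase in young diploid, 5099, 5051 and 6097 in young polyploid, 5013, 8072 and 5958 in aged diploid and 3770, 4495 and 5389 in aged polyploid cells. mt-Cytb stood at 5428, 5226 and 5675, at 5605, 3876 and 5212, at 5273, 7330 and 6220 and at 4581, 4209 and 7041 CPM per kilobase in the same order. In both, aged diploid replicate 2 was highest. mt-Nd1 stood at 5683, 4153 and 4386, at 7319, 3011 and 4793, at 3594, 6986 and 4872 and at 2876, 3899 and 4921 CPM per kilobase, with its highest value in young polyploid replicate 1 and groups that overlapped throughout.

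A long stretch of the mitochondrial genome has a near-identical copy on nuclear chromosome 1 (GRCm38, chr1:24611535-24616197, minus strand), annotated there as a row of gene models. Reads from such a stretch can belong to either locus, and how reads with several positions were counted is not given. Of all 50-base windows of a gene, 100% of those of mt-Co2, 99.9% of mt-Co3, 99.5% of mt-Atp6, 98.8% of mt-Nd4l and 98.0% of mt-Nd3 occur exactly in a nuclear gene model. For mt-Nd4 and mt-Co1 the share was 62.2% and 51.1%, for mt-Nd2 and mt-Nd5 8.19% and 7.61%, and for mt-Nd1, mt-Nd6, mt-Cytb, mt-Atp8 and every tRNA gene 0%. Only annotated transcripts were searched, so 0% does not show that a gene has no nuclear copy. On MT, mt-Tk and most of mt-Atp8 lie between mt-Co2 and mt-Atp6. On chromosome 1 the bases between the copies of mt-Co2 and mt-Atp6, 24614651 to 24614885, lie outside the copy models found. The 5 mRNAs of almost complete overlap were the same ones that, with mt-Atp8, had the lowest levels per kilobase. Their levels are those of the mitochondrial rows alone and need not be those of the mRNAs. The part of shared reads in these low levels was not tested.

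The copy of mt-Co3, Gm28437 (chr1:24613189-24613971, minus strand), matched it over 783 bases with 0 mismatches and took 62.5% of their joint counts. Its count was 1.59 to 1.76 times that of mt-Co3 in each of the 12 libraries, although mt-Co3 itself varied 4.84-fold in scaled CPM. Gm10222 took 68.9% of the counts it shares with mt-Nd4l, Gm28661 49.97% with mt-Co2, Gm10925 42.8% with mt-Atp6 and Gm28438 22.3% with mt-Nd3. The copies of the longer genes took less, 4.22% for Gm28439 with mt-Nd4 and 2.73% for Gm29216 with mt-Co1. The start of mt-Nd3 and of its copy Gm28438 (chr1:24612775-24613119, minus strand) shows how little separates them: their single difference over 345 aligned bases is T3C, counted from 1 at the 5′ end of mt-Nd3 with the mitochondrial base first, and it is in capitals.
mt-Nd3 (MT, 9459 to 9491, plus strand): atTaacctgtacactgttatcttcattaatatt
Gm28438: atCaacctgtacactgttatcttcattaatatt

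**Figure D2:**
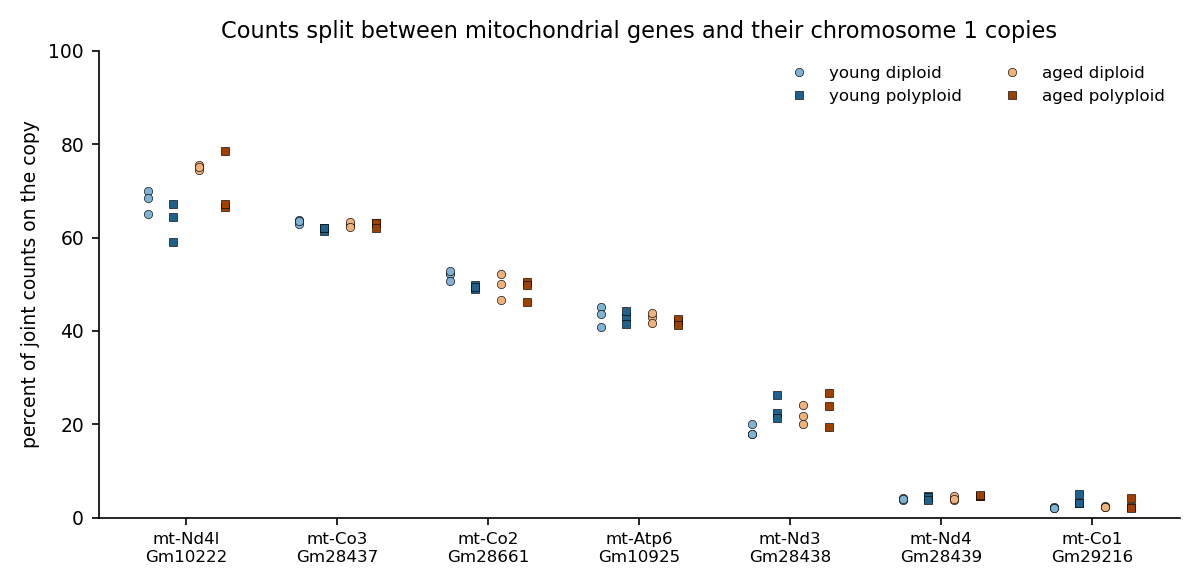
Percent of the joint counts of a mitochondrial gene and its chromosome 1 copy that were assigned to the copy (y axis, 0 to 100), for each gene pair (x axis), 1 point per library. The split of mt-Co3 with Gm28437 lies close to 62.5% in all 12 libraries, and those of mt-Nd4 and mt-Co1 lie lowest, near 4.22% and 2.73%.

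The make-up of the mRNA pool does not depend on scaling between libraries. It rests on the mitochondrial rows alone, without the reads counted for nuclear copies. mt-Co1, mt-Cytb and mt-Nd1 made up 26.7% to 40.5%, 21.7% to 30.4% and 14.9% to 23.7% of the protein-coding counts. mt-Co1 held 34.3%, 38.6% and 37.8% in young diploid, 26.7%, 40.5% and 36.97% in young polyploid, 35.6%, 34.6% and 35.9% in aged diploid and 33.7%, 35.01% and 30.7% in aged polyploid cells, groups that overlapped around 1 low young polyploid library. Complex I mRNAs together made up 33.3% to 46.5%, with the highest value in young polyploid replicate 1 and overlapping groups.

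Within this pool, mt-Cytb differed in direction between the ages. Its share was 23.9%, 23.8% and 25.8% in young diploid and 21.7%, 23.0% and 23.4% in young polyploid cells, so that the young polyploid libraries lay lower with no overlap. It was 27.7%, 23.2% and 27.7% in aged diploid and 30.4%, 24.3% and 29.7% in aged polyploid cells, which overlapped each other but were higher in the polyploid fraction of each mouse. The aged polyploid libraries all lay above the young polyploid ones. The fitted interaction of mt-Cytb, which compares levels and not shares, was 0.11 ± 0.64 on the log2 scale (SE; adjusted p = 0.976, edgeR quasi-likelihood test), and the difference in shares itself was not tested.

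Several shorter mRNAs, among them mt-Co2 and mt-Co3 of complex IV, went the other way in young mice. mt-Co2 held 0.358%, 0.350% and 0.358% of the protein-coding counts in young diploid and 0.604%, 0.448% and 0.463% in young polyploid cells, with no overlap. mt-Co3 held 1.08%, 0.741% and 0.927% of the protein-coding counts in young diploid and 2.42%, 1.36% and 1.84% in young polyploid cells, with no overlap. In aged mice the shares of mt-Co2 overlapped, at 0.356% to 0.489% in diploid and 0.387% to 0.589% in polyploid cells. In aged diploid cells mt-Co3 held 1.09%, 0.898% and 1.25% and in aged polyploid cells 1.19%, 0.955% and 2.404%, which overlapped. mt-Atp6, a membrane subunit of ATP synthase (complex V), held 0.725% to 0.842% in young diploid and 0.769% to 1.79% in young polyploid libraries, which overlapped. mt-Nd4l of complex I held 0.0205% to 0.0261% and 0.0267% to 0.0377% in these groups, with no overlap. The shares of mt-Co3, mt-Atp6, mt-Atp8 and mt-Nd3 were higher in the polyploid fraction of 6 of 6 mice. For mt-Co2 and mt-Nd4l this held in 5, for mt-Co1 in 2 and for mt-Nd4 in 0 mice. The part of gene length in these shares was not tested.

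**Figure D3:**
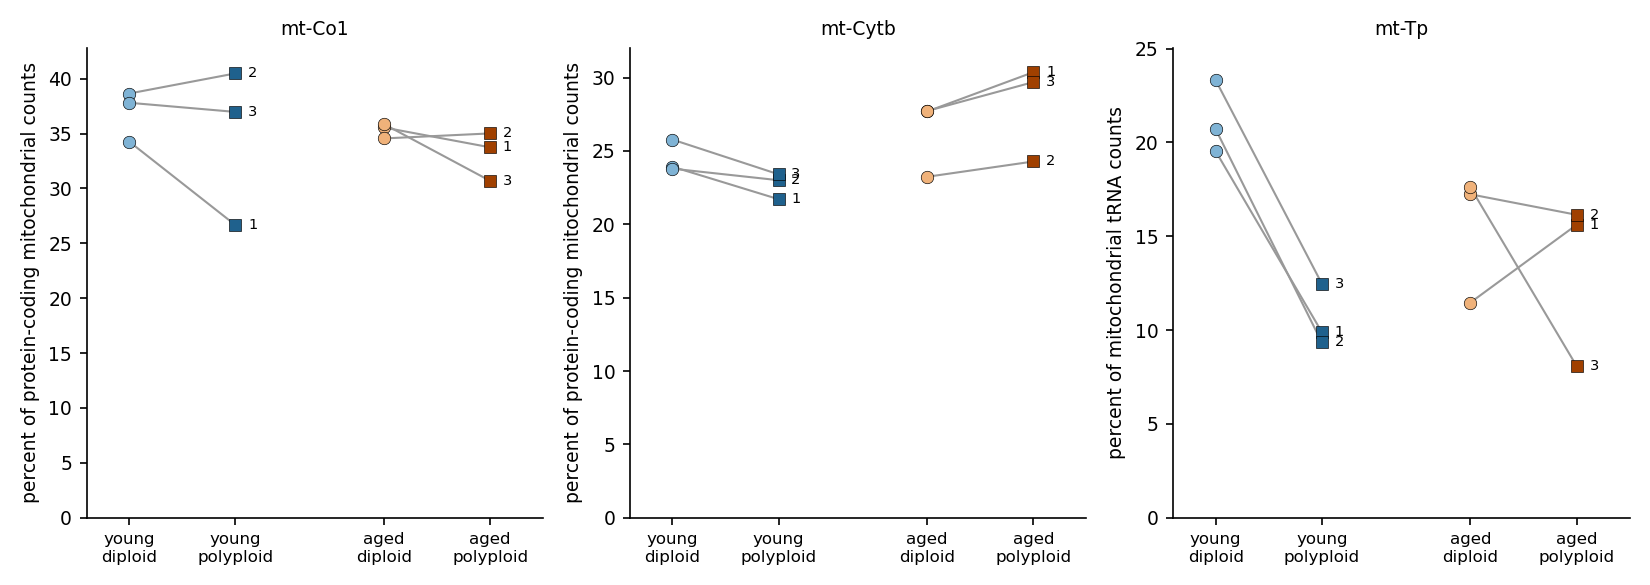
Percent of mitochondrial protein-coding counts held by mt-Co1 and by mt-Cytb, and percent of tRNA counts held by mt-Tp (y axes), by group (x axis), with a point for each library and numbered lines joining both fractions of a mouse. For mt-Cytb the young polyploid points lie below the young diploid ones, at 21.7% to 23.4% against 23.8% to 25.8%, and the aged polyploid points rise to 30.4%.

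The tRNA genes took far fewer counts. Such counts can come from longer RNA that covers a tRNA gene, so they need not be mature tRNA. Their source was not tested, and a tRNA level here means the counts on its gene. Summed over 22 genes they reached 145, 111 and 110 CPM in diploid cells of young mice and 362, 142 and 220 CPM in their polyploid cells. In aged mice they reached 97.4, 183 and 109 CPM in diploid and 64.6, 95.4 and 274 CPM in polyploid cells. Their share of the mitochondrial counts was 0.557%, 0.440% and 0.436% in young diploid and 1.21%, 0.732% and 0.856% in young polyploid cells, with no overlap. It was 0.445%, 0.504% and 0.424% in aged diploid and 0.373%, 0.479% and 0.998% in aged polyploid cells, where replicate 3 alone lay above the diploid libraries.

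By mean CPM over 12 libraries the leading tRNA genes were mt-Tn (23.4), mt-Tl1 (22.7) and mt-Tp (21.9), which carry asparagine, leucine and proline and are of nearly equal length. The level of mt-Tn was 17.8, 16.7 and 16.4 CPM in young diploid, 53.5, 25.7 and 37.8 in young polyploid, 13.2, 24.0 and 17.8 in aged diploid and 7.37, 10.1 and 40.4 in aged polyploid cells. All 3 young polyploid libraries lay above the young diploid ones, and the aged groups overlapped. mt-Td and mt-Tk, for aspartate and lysine, had 0 to 2 counts per library, where a count of 0 allows up to 3. They were left out of the tests with the genes of low counts, so that 33 members, 13 mRNAs and 20 tRNAs, were among the 14061 genes tested. The 8 tRNA genes of the minus strand took 50.9% to 62.8% of the tRNA counts. The strand setting of the counting is not given, so these counts need not come from RNA of that strand. The share can therefore not be read as the output of a strand. The aged polyploid libraries (50.9% to 54.9%) lay just below the young diploid ones (55.0% to 62.8%), and every other pair of groups overlapped. That pair differs in both age and ploidy, so its gap cannot be assigned to either.

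**Figure D4:**
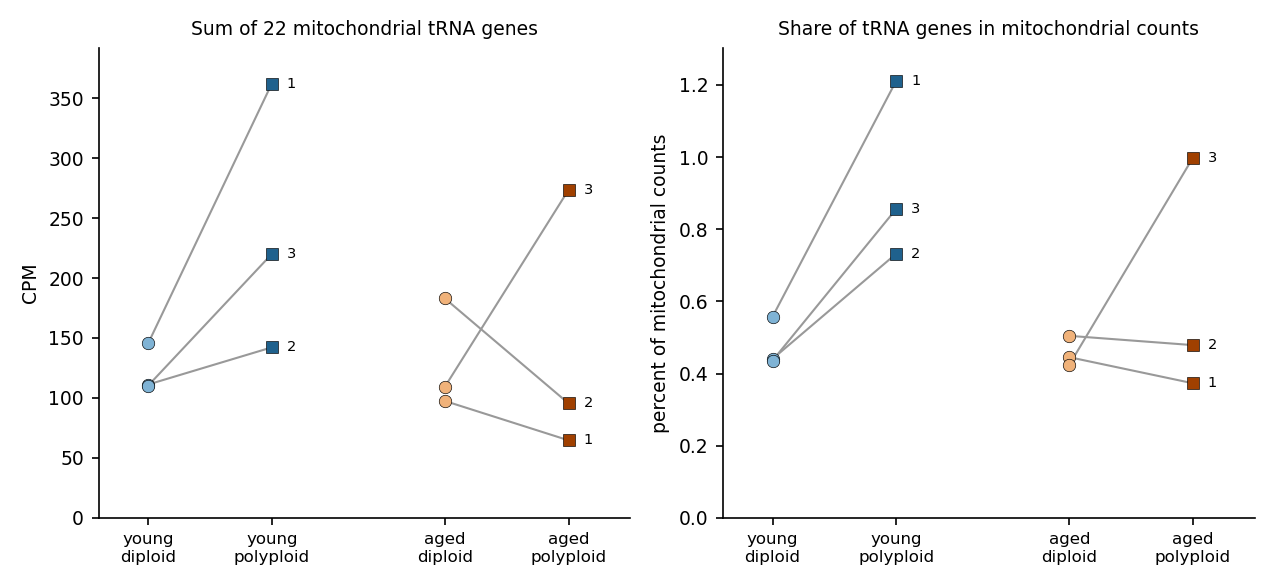
Summed CPM of the 22 tRNA genes and their percent of the mitochondrial counts (y axes) in the diploid and polyploid fractions (x axis), with a numbered line for each mouse. tRNA counts run from 110 to 145 CPM in young diploid and from 142 to 362 CPM in young polyploid libraries, while aged polyploid replicate 3, at 274 CPM, stands above the other aged polyploid libraries.

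Single libraries held most of the extreme values. On CPM scaled with TMM factors, which correct for the make-up of each library, young polyploid replicate 1 was highest for 30 of the 33 tested members, 11 mRNAs and 19 tRNAs. Aged polyploid replicate 3 was highest for mt-Cytb and mt-Tv, and young polyploid replicate 3 for mt-Co1. Aged polyploid replicate 1 was lowest for 17 members. Short nuclear genes were high in the same libraries. For the 77 of up to 200 bases, the median log2 deviation from their mean over 12 libraries was 1.24 in young polyploid replicate 1. It was 1.18 in aged polyploid replicate 3, 0.85 in young polyploid replicate 3, and -0.64 to 0.13 in the others. The part of gene length in the extreme values was not tested. The fold between the highest and the lowest library was 1.79 for mt-Nd4 and 1.86 for mt-Co1, and among tRNA genes it ran from 4.34 for mt-Tp to 25.8 for mt-Tr, a gene with few counts.

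In young mice, all 13 mRNAs and all 20 tested tRNAs had a higher fitted level in polyploid than in diploid cells, but 0 of the 33 passed an adjusted p of 0.05 (edgeR; DESeq2 also 0). Of all 14061 genes, 46.4% had a positive fold change and 0% were called higher. The median log2 fold change was 0.63 over the mRNAs and 1.38 over the tRNAs, against -0.06 over all genes. Without scaling factors 9 of 13 mRNAs and 19 of 20 tRNAs were positive (medians 0.44 and 1.19, all genes -0.23), and scaled to the hepatocyte markers 10 of 13 and 20 of 20 (0.56 and 1.31, all genes -0.13). In CPM, mt-Co1 was higher in the polyploid fraction in 0 of 6 mice. Among mRNAs it ran from 0.01 for mt-Co1 to 1.24 ± 0.57 (SE) for mt-Co3 (adjusted p = 0.401). At an unadjusted p under 0.05, 10 tRNA genes were higher, against 5.22% of all genes. The 3 smallest p-values belonged to mt-Ts1 (1.31 ± 0.44, adjusted p = 0.393), mt-Tf (1.75 ± 0.67, adjusted p = 0.393) and mt-Ts2 (1.87 ± 0.75, adjusted p = 0.393), the tRNAs for serine, phenylalanine and serine.

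The young groups did not overlap in scaled CPM, with polyploid higher, for 11 tRNAs and 0 mRNAs, where 16.8% of all genes did so. In young mice mt-Tf was at 4.38, 2.06 and 3.55 CPM in diploid cells and 15.3, 4.78 and 9.53 CPM in polyploid cells, so that its lowest polyploid library lay just above its highest diploid one. mt-Ts1 was at 4.43, 4.81 and 5.75 CPM against 14.5, 9.11 and 9.23 CPM, a wider gap. mt-Nd1 overlapped, at 5438, 3974 and 4198 CPM in diploid and 7004, 2882 and 4587 CPM in polyploid cells. Fitted on the young libraries alone, 8 members were called higher (mt-Co3 and the tRNAs mt-Tf, mt-Tv, mt-Tq, mt-Ta, mt-Tn, mt-Tc and mt-Ts1), where 5.49% of the genes tested were. Without young polyploid replicate 1 the medians of the fit over all groups were 0.11 for the mRNAs (9 of 13 positive) and 0.91 for the tRNAs (18 of 20 positive). Macrophage markers moved with this comparison, lower in polyploid cells for 12 of 12 genes, and their part in it was not tested.

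Gene length also moved with it. Among nuclear genes, the median log2 fold change of polyploid over diploid cells in young mice was 1.23 for the 77 genes of up to 200 bases of exon, 0.84, 0.68, 0.39, 0.11 and -0.19 for classes of increasing length, and -0.40 for the 3010 genes over 6400 bases. In aged mice the same classes ran from 0.79 to -0.28. The tRNA genes, all 59 to 75 bases long, thus had medians close to those of the shortest nuclear genes in both ages. With a loess correction on exon length, the young medians became -0.05 for the mRNAs (5 of 13 positive) and 0.10 for the tRNAs (11 of 20 positive).

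**Figure D5:**
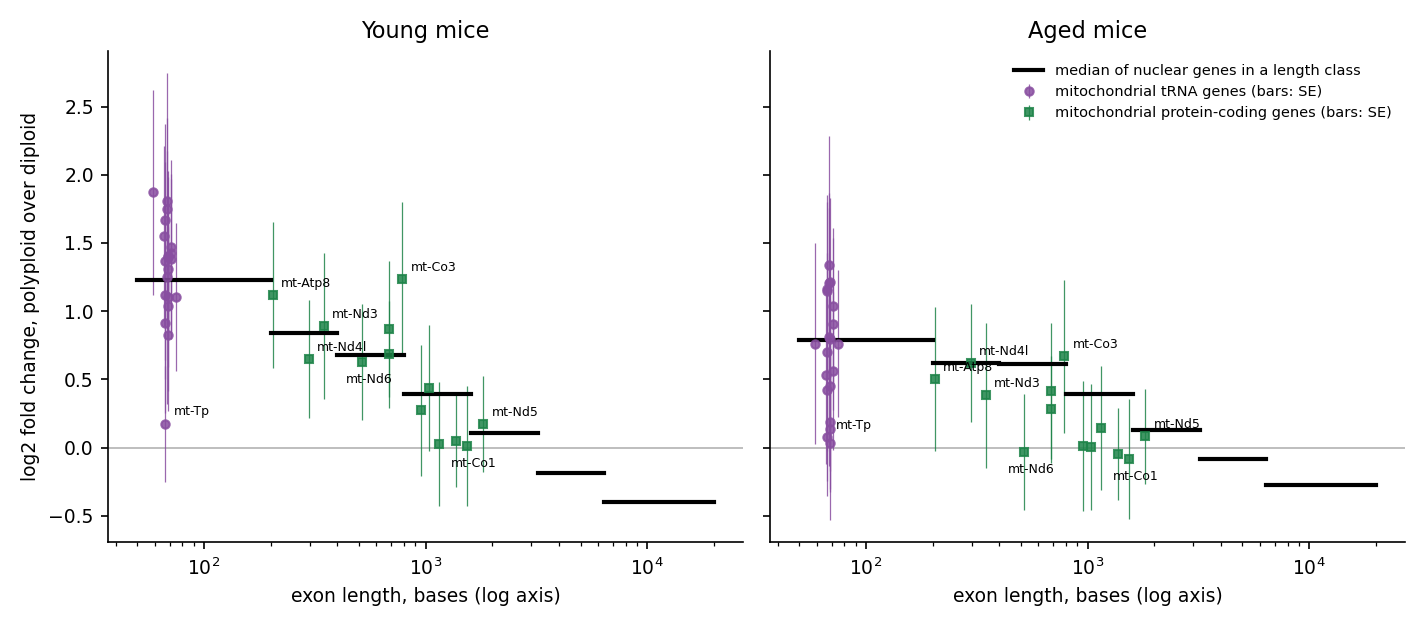
Log2 fold change of polyploid over diploid cells (y axis) against exon length in bases (x axis, log), in young and in aged mice, for the mitochondrial genes (points, bars SE) and as medians of nuclear genes by length class (black lines). The nuclear medians fall from 1.23 to -0.40 in young and from 0.79 to -0.28 in aged mice, and the tRNA genes lie at the short end.

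In aged mice, 10 of 13 mRNAs and 20 of 20 tRNAs had a positive polyploid over diploid fold change, where 51% of all genes did, and 0 of 33 passed (edgeR; 0 at an unadjusted p under 0.05, where 20.5% of all genes were in either direction, and 0 with DESeq2), against 0.363% of all genes called higher and 9.33% called lower. The median was 0.14 over mRNAs and 0.76 over tRNAs, against 0.02 over all genes. The smallest p-values belonged to mt-Tv, the valine tRNA (1.21 ± 0.62 SE, adjusted p = 0.289), mt-Tt, for threonine (1.17 ± 0.64, adjusted p = 0.316) and mt-Tf (1.20 ± 0.66, adjusted p = 0.318). mt-Tv was at 8.62, 11.7 and 8.55 CPM in diploid and 6.05, 9.38 and 32.9 CPM in polyploid cells. The shortest nuclear genes were also highest in polyploid replicate 3 among the aged libraries. For mt-Tv that single library was high. Without it the medians turned to -0.31 (1 of 13 positive) and -0.24 (2 of 20 positive), and with any 1 other library left out they stayed positive, at most 0.43 and 1.19. Without aged diploid replicate 2, the library with the most macrophage marker counts, they were 0.23 and 0.83. Without scaling factors the mRNA median was -0.25, and scaled to the hepatocyte markers both medians were negative, at -1.17 and -0.77, where all genes stood at -1.38.

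Averaged over both ages, polyploid cells had a higher fitted level for 12 of 13 mRNAs and 20 of 20 tRNAs, against 46% of all genes, with medians of 0.30 and 1.07 and -0.06 over all genes. Again 0 of 33 passed with edgeR, where 0.882% of all genes were called higher and 7.79% lower, and 13 members, 12 tRNAs and mt-Co3, had an unadjusted p under 0.05 against 11.1% of all genes. mt-Tf (1.48 ± 0.47 SE, adjusted p = 0.073), mt-Tq, for glutamine (1.23 ± 0.41, adjusted p = 0.080) and mt-Tv (1.31 ± 0.44, adjusted p = 0.083) were nearest to the threshold. With the mouse as a block, mt-Tf was called higher, at 1.21 ± 0.29 (adjusted p = 0.0207), where 8.89% of all genes were. With the length correction added to the block, mt-Tf was at 0.33 ± 0.17 (adjusted p = 0.224) and was not called. DESeq2 called mt-Tf, mt-Tv, mt-Tq and mt-Th, for histidine, where 5.26% of all genes were. The mice of aged replicates 1 and 2, whose diploid libraries had the most macrophage marker counts, were also left out from the blocked fit, an alternative chosen after seeing the data. Then 20 members were called higher in young mice (14.6% of all genes), 12 in aged mice (8.15%) and 24 over both ages (15.3%), where the aged difference rests on 1 mouse and the spread is that of the young mice. With the length correction added to that fit, 1 mRNA was called higher over both ages, where 13.7% of all genes were, and 3 mRNAs and 1 tRNA were called lower, where 14% were. Without young polyploid replicate 1 the medians of the fit over all groups were 0.09 and 0.84. With the length correction in the fit over all 12 libraries the medians were -0.14 and -0.02, and scaled to the hepatocyte markers the mRNA median was -0.60.

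The share of the proline tRNA gene mt-Tp lay lower in young polyploid than in young diploid cells. It held 19.5%, 20.7% and 23.3% of the tRNA counts in young diploid and 9.90%, 9.34% and 12.5% in young polyploid cells, with no overlap. In aged mice it held 11.5%, 17.2% and 17.6% in diploid and 15.6%, 16.1% and 8.08% in polyploid cells, which overlapped. In CPM it was at 28.4, 23.0 and 25.7 in young diploid and 35.8, 13.3 and 27.5 in young polyploid cells, and its fold change of 0.18 ± 0.42 (SE) was the smallest among the 20 tRNAs there. It was the last gene of the map, on the minus strand, and overlapped no other member. With the length correction it was the single member called over both ages, lower in polyploid cells by -0.83 ± 0.20 (adjusted p = 0.0294), where 7.01% of all genes were called lower. The block with the length correction gave -0.84 ± 0.17 (adjusted p = 0.0158), where 11% of all genes were called lower.

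The comparison of aged with young diploid cells gave small fold changes. Of 13 mRNAs 3 and of 20 tRNAs 4 had a positive aged over young fold change, against 55.3% of all genes, with medians of -0.20 and -0.25 and 0.09 over all genes. None of the 33 passed (edgeR; 0 at an unadjusted p under 0.05, against 19.6% of all genes in either direction, and 0 with DESeq2), where 3.76% of all genes were called higher and 0.171% lower. The smallest p-values belonged to mt-Tp (-0.71 ± 0.43 SE, adjusted p = 0.398), mt-Nd4l (-0.52 ± 0.43, adjusted p = 0.546) and mt-Tt (-0.68 ± 0.63, adjusted p = 0.586). These 3 were the members whose aged diploid libraries all lay below the young ones in scaled CPM, as did 7.57% of all genes.

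The direction in diploid cells depended on scaling. Without scaling factors the median of all genes moved to 0.47 and those of the mRNAs and tRNAs to 0.21 (11 of 13 positive) and 0.12 (16 of 20 positive). Scaled to the hepatocyte markers, they were 1.504, 1.22 and 1.14. The medians of both classes thus lay below the median of all genes under each of the 3 scalings. The TMM factor of aged diploid replicate 2, 1.70, stood apart from the 0.836 to 1.14 of the other libraries, and the macrophage markers were higher in aged diploid cells for 12 of 12 genes (3 passing). Without that library the medians were -0.28 and -0.26. Without young diploid replicate 1 the tRNA median was 0.01 (11 of 20 positive).

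In polyploid cells, where macrophage markers were low at both ages, 0 of 13 mRNAs and 0 of 20 tRNAs had a positive aged over young fold change, against 53.2% of all genes. The medians were -0.54 and -0.79 against 0.05 over all genes, but 0 of 33 passed (edgeR; 0 at an unadjusted p under 0.05, against 9.17% of all genes in either direction, and 0 with DESeq2), where 0.0284% of all genes were called higher and 0.00711% lower. mt-Te, the glutamate tRNA, had the smallest p (-1.21 ± 0.57 SE, adjusted p = 0.547), before mt-Ts1 (-0.92 ± 0.44, adjusted p = 0.555) and mt-Tp (-0.81 ± 0.43, adjusted p = 0.589). mt-Te was at 8.54, 2.33 and 2.30 CPM in young and 1.55, 2.22 and 2.53 CPM in aged polyploid cells, groups that overlapped with 1 high young library. Among mRNAs the fold change ran from -0.94 for mt-Nd3 to -0.01 for mt-Cytb.

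The size of these differences in polyploid cells changed with the libraries that stood highest. With 1 library left out, the medians ran from -1.11 to -0.16 for the mRNAs and from -1.81 to -0.28 for the tRNAs. The smallest were those without young polyploid replicate 1 (3 of 13 and 3 of 20 positive) and the largest those without aged polyploid replicate 3, where mt-Tn was called lower (-2.48 ± 0.36 SE, adjusted p = 0.0456), where 0.0199% of all genes were. With both libraries left out they were -0.68 and -1.26, and 0 members were called. The length correction brought the medians to -0.25 and -0.27.

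The ploidy difference was not shown to differ between the ages. For the interaction, 0 of 33 members passed (edgeR; 0 at an unadjusted p under 0.05, against 11% of all genes in either direction, and 0 with DESeq2), and 0% of all genes were called higher and 0% lower. The medians were -0.40 over mRNAs and -0.58 over tRNAs (1 of 13 and 2 of 20 positive), where 49.8% of all genes had a positive interaction. Without young polyploid replicate 1 they turned to 0.07 and 0.08 (9 of 13 and 12 of 20 positive). mt-Ts1 (-1.18 ± 0.62 SE, adjusted p = 0.534), mt-Tm, for methionine (-0.92 ± 0.72, adjusted p = 0.707) and mt-Tc, for cysteine (-1.02 ± 0.92, adjusted p = 0.762) had the smallest p-values. For mt-Co3, the 95% interval of the interaction ran from -2.29 to 1.16, so that the data did not fix its direction.

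The nuclear genes that build the same complexes were read beside them, with no member of these lists passing in any comparison (edgeR). Of 71 measured nuclear subunits of complexes I, III, IV and V, 68 had a positive polyploid over diploid fold change in young mice (median 0.65) and 71 in aged mice (median 0.69), against 46.4% and 51% of all genes. Nuclear genes of 400 to 800 bases of exon, whatever their function, had medians of 0.68 in young and 0.61 in aged mice. The part of exon length in the subunit medians was not tested. The mRNAs of the mitochondrial genome had a median close to that of the nuclear subunits in young mice (0.63) and a smaller one in aged mice (0.14). In young mice, the nuclear genes with the smallest p were Ndufv3 of complex I (0.86 ± 0.36 SE, adjusted p = 0.393) and Atp5e of complex V (1.46 ± 0.60, adjusted p = 0.393). Atp5e was at 183, 129 and 182 scaled CPM in young diploid and 612, 275 and 473 in young polyploid cells, without overlap, and like mt-Co3 it stood highest in replicate 1. With age, 0 of the 71 were positive in diploid cells (median -0.64) and 1 in polyploid cells (median -0.58), so that nuclear and mitochondrial subunits had negative medians in both fractions with TMM scaling. In diploid cells the mitochondrial mRNA median was positive without scaling factors and when scaled to the hepatocyte markers, as given above.

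Genes that copy, process and decode mitochondrial RNA were read in the same way. Of 17 genes of mitochondrial transcription and DNA maintenance, 9 had a positive fold change with ploidy in young mice (median 0.01) and 13 in aged mice (median 0.43). Over both ages Mrpl12, a mitochondrial ribosomal protein that also binds the mitochondrial RNA polymerase, had 1.14 ± 0.39 (SE, adjusted p = 0.087) and Mgme1, an exonuclease that trims mitochondrial DNA, -0.54 ± 0.19 (adjusted p = 0.092). Of 24 genes of RNA processing and stability, 11 were positive in young mice. Among them Pnpt1, the polynucleotide phosphorylase that degrades mitochondrial RNA, was at 33.8, 43.8 and 34.2 scaled CPM in young diploid and 15.8, 20.3 and 16.7 in young polyploid cells, without overlap (-1.08 ± 0.27, adjusted p = 0.393). In aged mice it was at 35.7, 31.5 and 36.1 in diploid and 37.3, 40.1 and 19.4 in polyploid cells. The low aged value fell in replicate 3, which had the highest mitochondrial tRNA sum among the aged libraries. Short nuclear genes also stood high in that library, and no link between these values was tested.

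Among 17 tRNA modification genes, Trmt1, which methylates tRNA, was at 12.4, 11.1 and 10.8 scaled CPM in young diploid and 21.2, 20.9 and 19.6 in young polyploid cells (0.85 ± 0.23 SE, adjusted p = 0.393), again without overlap. It was at 9.98, 11.9 and 9.56 in aged diploid and 10.9, 9.45 and 15.7 in aged polyploid cells, where replicate 3 was highest. Among 22 mitochondrial tRNA synthetases, 13 were positive with ploidy in young and 19 in aged mice, and Cars2, the cysteine enzyme, had the smallest p over both ages (0.51 ± 0.16, adjusted p = 0.068). Of 11 rRNA modification genes 9 and 8 were positive with ploidy in young and aged mice. Of 13 genes taken as signs of mitochondrial mass, such as import receptors and chaperones, 9 and 12 were positive with ploidy, and 0 and 3 were positive with age in diploid and polyploid cells (medians -0.53 and -0.26).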

How the data were processed

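RNA-seq counts of 12 libraries were used. They are raw gene counts as deposited, which the authors made with featureCounts of Subread 1.5.2 after Trimmomatic 0.36 and STAR 2.5.2b on GRCm38 (mm10), per the submitters' processing notes. The annotation release, the strand setting, the treatment of reads with several positions and the reporter are not given in the sources read for this work. Overlapping and antisense genes can therefore not be told apart. Of 49315 gene IDs, 48970 were named through GENCODE M21, and 345 (0.0271% of counts) were not. CPM was taken over all gene counts.

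Tests used edgeR 4.0.16 (quasi-likelihood F test, R 4.3.3, TMM scaling, filterByExpr with a minimum count of 10, 4 group means, 14061 of 27518 genes with a count, Benjamini-Hochberg adjusted p under 0.05). Alternatives used DESeq2 1.42.0, or edgeR with other scalings, other filters, a loess correction on exon length, a mouse block or left-out libraries. The scripts were tested on simulated data. Replicate numbers pair the fractions of 1 mouse, as the series design has 3 mice per age giving both fractions. In 9076 genes, deviations from the group means correlated at 0.398, 0.559 and 0.348 in young and 0.424, 0.514 and 0.499 in aged pairs, and every other pairing was negative. Sequences and copies were read from the GENCODE M21 transcripts.

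All mRNAs were named with levels. Fold changes are given for members that passed or, where none did, for the 3 of smallest p, and for the range of mRNAs. Other features named were chosen after their values were seen. The members and lists were chosen with earlier results of these data known. Counting floors cover counting error only.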

Additional observations from a re-analysis of the deposited data

Results flagged for a closer look

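Many levels, shares and list sums were searched for 1 pattern. It was a ploidy difference of 1 sign in all 3 young mice and the other sign in all 3 aged mice. With so many searched, some can meet it by chance. The share of mt-Cytb in the mitochondrial protein-coding counts met it, with opposite directions in young and aged mice. Polyploid minus diploid, it was -2.22, -0.787 and -2.37 percentage points in the 3 young mice and 2.68, 1.042 and 1.97 percentage points in the 3 aged mice. The same pattern held, in CPM without scaling factors, for the summed values of the 24 genes of mitochondrial RNA processing and stability, with differences of -26.1, -2.69 and -7.79 CPM in young and 9.18, 88.4 and 82.1 CPM in aged mice. It also held for the 13 genes taken as signs of mitochondrial mass, at -117, -37.3 and -199 CPM in young and 124, 373 and 95.6 CPM in aged mice. With the TMM scaling of the tests, both sums were higher in the polyploid fraction of every mouse, so that the opposite directions were not seen. The young differences were then 106, 99.4 and 119 scaled CPM for the first list and 170, 194 and 80.4 for the second. The largest aged differences were those of replicate 2, whose diploid library had the lowest sums (795 and 1582 CPM), 37207 CPM of macrophage markers and 25749 CPM of hepatocyte markers, against 83428 and 101249 CPM of hepatocyte markers in the other aged diploid libraries. The part of these markers in the sums was not tested. These differences between the ages were not tested.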

How the results depend on the processing

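The number of members called was recomputed under 31 other settings, and 325 of 344 recomputed counts equalled the 0 of the tests as reported. Over both ages, polyploid cells had 9 members called higher with no filter on low counts (1.84% of all genes), 4 with DESeq2 (5.26%), and 0 to 2 when 1 library was left out (2 without aged polyploid replicate 2, where 2.73% of all genes were, and 1 without aged diploid replicate 3, where 6.98% were). The exon length correction gave 1 called lower, mt-Tp (7.01%). In young mice, the groups compared alone gave 8 called higher (5.49%). In polyploid cells, 0 to 1 member was called lower with age when 1 library was left out (0.0199% without aged polyploid replicate 3). The replicate block, which pairs the fractions of a mouse, gave 1 called higher over both ages (8.89%) and, with the length correction, 1 called lower (11%), and changed no other count.

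Settings chosen after seeing the data were these. The block with chromosome 1 copies added gave 1 called higher over both ages (8.88%). The block without the mice of aged replicates 1 and 2, which leaves 1 aged mouse whose spread is assumed to be like that of the young mice, gave 20 called higher in young mice (14.6% of all genes), 12 in aged mice (8.15%) and 24 over both (15.3%). With the length correction added, it gave 1 higher and 4 lower in young mice (13.8% and 11.6%), 1 lower in aged mice (6.77%), and 1 higher and 4 lower over both (13.7% and 14%). The young groups compared alone with the length correction gave 1 called lower (3.97%). The causes were not tested.

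Leaving a single library out of a group cannot move the group mean by 1 SD, so such settings could not reach that limit. Of 89 levels and shares recomputed, with such settings among them, 87 moved by less than 1 SD. The exceptions were the young diploid protein-coding level, 26069 CPM when scaled with TMM and 26092 CPM over nuclear genes, against 25426. Depth limits the tRNA genes, some of which rest on few counts. Reads shared with annotated nuclear copies limit mt-Co2, mt-Co3, mt-Atp6, mt-Nd4l and mt-Nd3. Copies outside annotated transcripts, such as of mt-Atp8 or the tRNA genes, were not looked for.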
